A study of Mus musculus with 2 samples.

Results

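The 10 genes described here were chosen by name as EGF-family ligands and their receptors, where EGF is epidermal growth factor: 3 receptor genes, Egfr, Erbb2 and Erbb3, and 7 ligand genes, Egf, Tgfa, Areg, Hbegf, Btc, Ereg and Epgn. They were found by symbol among the 32285 genes of both count matrices, and all 10 were present. The series profiled single cells from the prostate of wild-type male C57BL6 mice, with 1 library each for the ventral lobes and for the region around the proximal ducts and urethra, labelled proximal and periurethral. The labels name no treatment, and the age and number of mice were not given in the sources used here. Both tissues were dissociated with papain and TrypLE. The ventral library was made with version 2 and the proximal library with version 3 of the Chromium Single Cell 3' kit, so that region and kit cannot be told apart. With 1 library per region there is no replicate check and no p-value, and every interval below is an exact 95% interval for counting error only. The question was in which epithelial, stromal and immune cells each member was found, and at what level.

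EGF-family ligands are made as membrane-bound precursors that proteases release, and the free ligand makes receptors of the ErbB family pair and switch on their kinases. Egfr encodes the receptor that binds all 7 of these ligands. The product of Erbb2 binds none of them and acts as a preferred partner, whereas that of Erbb3 binds neuregulins and has a very weak kinase of its own. In the prostate, distal luminal cells secrete the proteins of the seminal fluid, basal cells sit beneath them, and proximal luminal cells line the ducts near the urethra.

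Of the members, 4 ligand genes lie in 1 stretch of chromosome 5 of the mouse genome (GRCm38, GENCODE M21), in the order Epgn, Ereg, Areg and Btc. Other genes between them were not looked for. Together the 4 ligand genes span 375.5 kb, with 39.4 kb between Epgn and Ereg, 46.0 kb between Ereg and Areg, and 208.8 kb between Areg and Btc. Areg lies at chr5:91139599-91148432 on the plus strand and Btc at chr5:91357261-91402994 on the minus strand. Egfr and Erbb2 are both on chromosome 11, at chr11:16752203-16918158 and chr11:98412470-98437716, Erbb3 is at chr10:128567523-128589652, Egf at chr3:129677565-129755316 and Tgfa at chr6:86195223-86275719. RefSeq windows of the 250 bases before the start (GRCm38.p6) were matched for 7 of the 10 members, and 4 are shown. Erbb3 and Ereg had no window, Hbegf was left out of the matching, and these genes were not searched. Areg and Btc are shown as adjacent members on chromosome 5 whose level was highest in the same proximal cell class. Egfr and Egf are shown because their levels were highest in different epithelial classes of the proximal library, basal and distal luminal cells. Capitals mark a match to 1 of 5 motifs searched on both strands.
Areg, chr5:91139349-91139598, plus strand: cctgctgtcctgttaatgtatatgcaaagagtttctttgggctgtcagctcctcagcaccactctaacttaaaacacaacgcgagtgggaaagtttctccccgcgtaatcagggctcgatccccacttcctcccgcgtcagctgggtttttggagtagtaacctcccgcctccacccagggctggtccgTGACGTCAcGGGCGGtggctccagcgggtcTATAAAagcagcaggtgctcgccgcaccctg
Btc, chr5:91402995-91403244, minus strand: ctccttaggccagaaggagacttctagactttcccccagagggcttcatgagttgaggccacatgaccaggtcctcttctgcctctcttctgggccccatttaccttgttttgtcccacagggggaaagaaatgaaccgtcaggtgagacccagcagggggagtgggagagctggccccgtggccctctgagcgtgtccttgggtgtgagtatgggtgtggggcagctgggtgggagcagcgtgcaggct
Egfr, chr11:16751953-16752202, plus strand: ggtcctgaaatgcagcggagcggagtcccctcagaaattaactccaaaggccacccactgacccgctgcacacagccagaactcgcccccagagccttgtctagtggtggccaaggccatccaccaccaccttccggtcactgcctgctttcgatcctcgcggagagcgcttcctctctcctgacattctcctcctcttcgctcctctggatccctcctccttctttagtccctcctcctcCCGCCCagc
Egf, chr3:129755323-129755572, minus strand: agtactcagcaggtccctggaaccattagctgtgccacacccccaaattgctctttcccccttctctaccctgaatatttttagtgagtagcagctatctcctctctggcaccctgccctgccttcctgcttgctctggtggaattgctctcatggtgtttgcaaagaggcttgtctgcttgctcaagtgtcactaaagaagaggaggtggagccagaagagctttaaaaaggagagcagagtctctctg
The motifs were the cAMP response element TGACGTCA, the AP-1 site TGANTCA, the GC box GGGCGG, the TATA box TATAAA and the androgen receptor half-site AGAACA, and no marked matches overlap. The Areg window held TGACGTCA 61 bases before the start, a motif found in 1.55% of the 32851 windows of that length. It also held GGGCGG at 52 bases, a motif of 32.7% of windows, and TATAAA at 31 bases, a motif of 12.4% of windows. Egfr held a single GC box at 9 bases on the opposite strand, and the Btc and Egf windows held none of the 5. Among the windows not shown, Tgfa held 2 GC boxes and Epgn a TATA box and the half-site, which 16.1% of windows hold. None of the 7 member windows searched held the AP-1 site, found in 6.75% of all windows. A match is a run of letters and was not tested as a binding site.

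The ventral library held 49356586 unique molecular identifiers (UMIs) in 2221 barcodes and the proximal library 97817603 in 4344. After filtering, 1988 ventral cells with a median of 25758 UMIs and 3705 proximal cells with a median of 15260 were kept, and the libraries shared 0 barcodes. Cells were clustered without the members, and each cluster was named after markers; a name such as basal stands for basal-like. The ventral library held 1704 distal luminal, 141 basal, 85 proximal luminal, 30 macrophage and 28 T or NK cells. The proximal library held 1054 proximal luminal, 910 basal, 708 distal luminal, 522 fibroblast, 79 macrophage, 61 endothelial, 27 T or NK and 26 seminal vesicle cells, and 318 cells of a cluster led by haemoglobin genes stayed unnamed. A level is the sum of a gene's UMIs over the cells of a class as counts per 1000000 UMIs of that class (CPM). The doublet caller marked 7 ventral and 4 proximal barcodes, under 0.5%, so most doublets must be taken as still present. The seminal fluid genes Sbp and Spink1 gave 45.8% of all UMIs in the ventral distal luminal class, 16.0% in ventral proximal luminal cells, 21.1% in ventral macrophages, 37.1% in ventral T or NK cells and 1.62% in ventral basal cells. In the ventral basal class the 7 fibroblast markers summed to 5399.7 CPM, beside 4969.6 CPM for the 8 basal markers, and 1 of the fibroblast markers, Dcn, and 7 of the basal markers were found in at least 25% of the cells. The same 2 sums were 1341 and 7887 CPM in proximal basal cells, and no ventral cluster was named fibroblast.

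Egfr was highest in basal cells of both libraries, followed in the proximal library by fibroblasts and proximal luminal cells. Its proximal levels came to 240.1 CPM (231 to 249) in basal cells, 119 CPM (109.6 to 128) in fibroblasts, 67.8 CPM (64.9 to 70.8) in proximal luminal cells and 9.96 CPM (8.93 to 11.1) in distal luminal cells. The ventral levels were 45.5 CPM (31.3 to 63.9) in basal, 15.6 CPM (9.41 to 24.4) in proximal luminal and 3.28 CPM (2.78 to 3.85) in distal luminal cells. Basal cells therefore stood above proximal luminal cells and these above distal luminal cells in each library, and no neighbouring intervals overlapped when all cells were counted. In the proximal immune classes Egfr was at 5.08 CPM (1.65 to 11.9) in macrophages and 13.9 CPM (2.88 to 40.8) in T or NK cells, the latter 3 UMIs of 1 cell, and both ventral immune classes held 0 Egfr UMIs. The endothelial value, 13.6 CPM (6.8 to 24.4), came from a single cell that held all 11 UMIs. In cells thinned to 1000 UMIs, Egfr was found in 16.5% (14.1% to 19.1%) of proximal basal cells and 1.28% (0.0325% to 6.94%) of proximal macrophages, whose median depths were 12037 and 11922 UMIs. Before thinning these shares were 73% and 5.06%. Without the 70 of 141 ventral basal cells that held more fibroblast than basal marker UMIs, ventral basal Egfr was 36.5 CPM (19.9 to 61.2), an interval that overlapped that of ventral proximal luminal cells. Without cells above 5% of secretory UMIs the 2 ventral levels, 43.9 CPM (29.8 to 62.3) in basal and 24.9 CPM (14.2 to 40.4) in proximal luminal cells, overlapped too.

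By class level Erbb2 varied less than the other receptors across the epithelium. Its proximal levels were 9.61 CPM (8.59 to 10.7) in distal luminal, 8.6 CPM (7.58 to 9.72) in proximal luminal and 5.64 CPM (4.39 to 7.14) in basal cells. Fibroblasts, at 3.27 CPM (1.94 to 5.17), and macrophages, at 1.02 CPM (0.0257 to 5.66) from 1 UMI, were below the luminal classes, with intervals that did not overlap theirs. Ventral proximal luminal cells were highest at 19.8 CPM (12.7 to 29.4), and distal luminal cells, at 7.17 CPM (6.42 to 7.98), and basal cells, at 6.89 CPM (2.24 to 16.1), could not be separated. Over clusters of the proximal library Erbb2 ranged from 3.51 to 31.3 CPM in proximal luminal and from 7.72 to 38 CPM in distal luminal cells. For Erbb3 those ranges were 32.45 to 91.7 CPM and 18.8 to 38 CPM.

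Among basal, proximal luminal and distal luminal cells Erbb3 was highest in proximal luminal cells of both libraries. Proximal luminal cells had 50.8 CPM (48.3 to 53.5) in the proximal and 36.2 CPM (26.3 to 48.6) in the ventral library. Distal luminal cells followed with 25.5 CPM (23.8 to 27.2) and 11.8 CPM (10.8 to 12.8). Basal cells had 15.3 CPM (13.2 to 17.6) in the proximal library, and in the ventral library a single UMI, 1.38 CPM (0.0349 to 7.68). Fibroblasts held 2.0 CPM (0.998 to 3.58) and proximal macrophages 1 UMI. Ventral T or NK cells held 11.3 CPM (3.68 to 26.4) from 5 UMIs and ventral macrophages 11.6 CPM (1.4 to 41.7) from 2, near the ventral distal luminal level; without cells above 5% of secretory UMIs these were 0 and 1 UMIs. The receptor genes thus split the epithelium, with Egfr higher in basal and Erbb3 higher in proximal luminal cells of each library. The small seminal vesicle class had the highest Erbb3 level of any class, 73.6 CPM (57.4 to 93), over 26 cells, with an interval that did not overlap that of proximal luminal cells of its library.

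**Figure D1:**
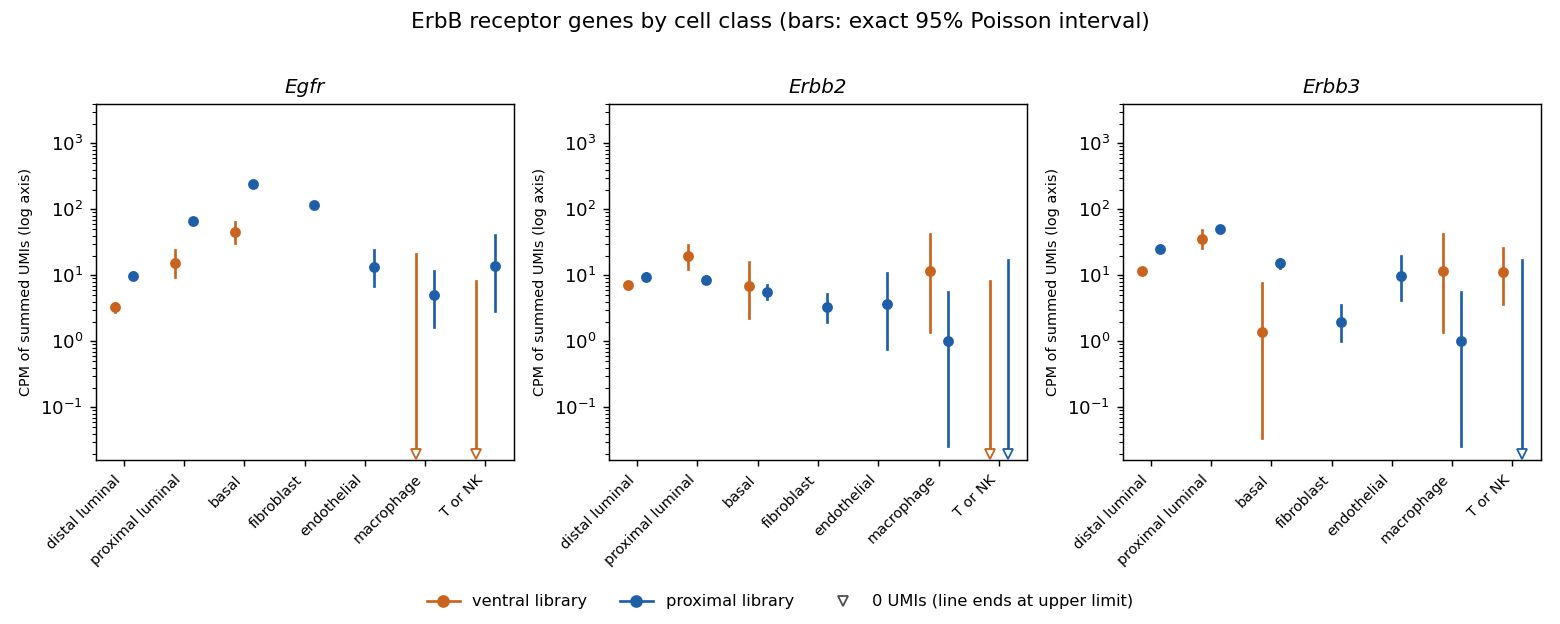
Levels of the 3 receptor genes by cell class, in CPM of summed UMIs on a log axis, with exact 95% Poisson intervals; open triangles mark classes with 0 UMIs. Proximal basal cells had 240.1 CPM of Egfr against 9.96 in distal luminal cells, while Erbb3 was at 50.8 CPM in proximal luminal and 15.3 in basal cells.

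Among the ligands Egf, the founding member of the family, had a pattern of its own. Distal luminal cells held 111 CPM (108 to 115) in the proximal and 112 CPM (109 to 115) in the ventral library. Proximal basal cells held 3.68 CPM (2.68 to 4.92), proximal luminal cells of the same library 5.8 CPM (4.97 to 6.73) and fibroblasts 3.09 CPM (1.8 to 4.95). The distal luminal level therefore lay far above all other named classes of the proximal library. Ventral basal cells held 2.76 CPM (0.334 to 9.96) from 2 UMIs, but proximal luminal cells held 111 CPM (93.2 to 132), as much as distal luminal cells. With totals that leave out genes above 1% of a class, their ratio to distal luminal cells was 0.609. Of these 85 ventral proximal luminal cells, 27 took more than 5% of their UMIs from those secretory genes, and without them the level was 73.1 CPM (53.7 to 97.2). Ventral T or NK cells held 70.2 CPM (47.7 to 99.7) and ventral macrophages 28.9 CPM (9.38 to 67.4), all 5 UMIs of the latter in 1 cell; in the proximal library T or NK cells held 0 UMIs. Without cells above 5% of secretory UMIs, the remaining 11 ventral T or NK cells held 2 Egf UMIs, 37.6 CPM (4.55 to 136), and the remaining 28 ventral macrophages 0. In cells thinned to 1000 UMIs, Egf was found in 14.4% (11.9% to 17.2%) of proximal distal luminal and 0.0951% (0.00241% to 0.528%) of proximal luminal cells, with median depths of 47593 and 19829 UMIs; unthinned, the shares were 79.4% and 11.8%.

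Tgfa, a ligand of the EGF receptor, was shared by basal and proximal luminal cells. Its proximal levels were 26.9 CPM (24.1 to 29.97) in basal, 26.1 CPM (24.3 to 28) in proximal luminal and 4.42 CPM (3.74 to 5.19) in distal luminal cells. The ventral levels were 19.3 CPM (10.6 to 32.4), 9.88 CPM (5.1 to 17.3) and 1.35 CPM (1.03 to 1.73) in the same order. Distal luminal cells were thus lowest in both libraries, and the basal and proximal luminal intervals overlapped. Endothelial cells held 23.5 CPM (14.2 to 36.7) and fibroblasts 5.63 CPM (3.83 to 8.0). Macrophages of both libraries held 0 Tgfa UMIs, which allows levels of up to 3.05 CPM in the proximal and 17.3 CPM in the ventral library, taking 3 counts as the limit.

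Areg encodes amphiregulin, a heparin-binding ligand of the EGF receptor. Proximal luminal cells of the proximal library had 225 CPM (219.6 to 230.4), basal cells 84.5 CPM (79.5 to 89.9), fibroblasts 14 CPM (11 to 17.5) and distal luminal cells 9.02 CPM (8.04 to 10.1). The intervals of these levels, of counting error only, did not overlap. The ranges over clusters did: 79.6 to 455 CPM in proximal luminal, 31.6 to 169 CPM in basal and 4.65 to 48.5 CPM in distal luminal cells. Fibroblast clusters, at 5.83 to 15.6 CPM, lay within the distal luminal range. Proximal macrophages had 78.2 CPM (61.7 to 97.8), but a single cell held 50.6% of those UMIs. Areg was scarce in every ventral class: proximal luminal cells held 5 UMIs, 4.12 CPM (1.34 to 9.6), basal cells 1 UMI and distal luminal cells 22 UMIs, 0.478 CPM (0.299 to 0.724). After thinning to 1000 UMIs, Areg was found in 17.5% (15.2% to 19.9%) of proximal luminal cells of the proximal library, with a median depth of 19829 UMIs, and in 0.775% (0.212% to 1.97%) of its fibroblasts, with a median depth of 10300. The unthinned shares were 71.9% and 6.71%.

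Hbegf, which encodes heparin-binding EGF-like growth factor, was found in all classes, and among the named classes it was highest in proximal luminal cells of the proximal library. Proximal luminal cells had 1477 CPM (1463 to 1490.5) in the proximal and 566 CPM (525 to 610.2) in the ventral library. Basal cells followed with 979 CPM (961 to 996) and 383 CPM (339.5 to 431), and distal luminal cells had 218 CPM (213 to 223) and 120.1 CPM (117 to 123). That order, proximal luminal above basal above distal luminal, held in both libraries with no overlap of intervals. Over clusters of the proximal library the proximal luminal range, 643 to 1535 CPM, overlapped the basal range, 528 to 1245 CPM. Outside the epithelium, endothelial cells had 799.5 CPM (739 to 864), fibroblasts 354 CPM (338 to 370.0) and proximal macrophages 96.5 CPM (78.1 to 118), with 49.5% of the macrophage UMIs in a single cell. A list of 14 immediate-early and stress genes summed to 15000 CPM in ventral basal, 12818 in ventral proximal luminal and 4454 in ventral distal luminal cells. In the proximal library the sums were 12666, 12767 and 13748 CPM in the same order. Among the ventral epithelial classes the list was thus lowest in distal luminal cells, where Egfr, Hbegf, Areg and Tgfa were lowest too, and it was highest in basal cells, as were Egfr and Tgfa. Its part in these ventral differences was not tested. Among the same 3 classes of the proximal library it was highest in distal luminal cells, where these 4 genes were lowest of the 3. Seminal vesicle cells, the fourth epithelial class there, had a list sum of 4928 CPM and still lower Egfr, 3.15 CPM, Hbegf, 174 CPM, and Areg, 1.05 CPM.

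Btc, which encodes betacellulin, was concentrated in proximal luminal cells. They held 13.5 CPM (12.2 to 14.8) in the proximal and 9.88 CPM (5.1 to 17.3) in the ventral library, the latter from 12 UMIs. Basal cells of the proximal library held 2.13 CPM (1.39 to 3.11) and distal luminal cells 0.586 CPM (0.358 to 0.905), and ventral distal luminal cells held 0.847 CPM (0.602 to 1.16). Ventral basal cells held 0 Btc UMIs, which allows up to 4.14 CPM. Ereg, which encodes epiregulin, was the scarcest ligand by UMIs. It gave 53 UMIs in proximal luminal cells of the proximal library, 1.77 CPM (1.32 to 2.31), 22 in basal cells, 1.8 CPM (1.13 to 2.72), 1 in distal luminal cells and 2 in fibroblasts. A single proximal luminal cell held 32.1% of that class's UMIs. The ventral library held 0 Ereg UMIs in all 1988 cells, which allows up to 0.0617 CPM. Epgn, which encodes epigen, was a basal transcript: proximal basal cells held 11.6 CPM (9.78 to 13.7), proximal luminal cells 1.53 CPM (1.12 to 2.05) and distal luminal cells 0.0879 CPM (0.0181 to 0.257) from 3 UMIs. Its only 2 ventral UMIs were both in basal cells, 2.76 CPM (0.334 to 9.96).

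**Figure D2:**
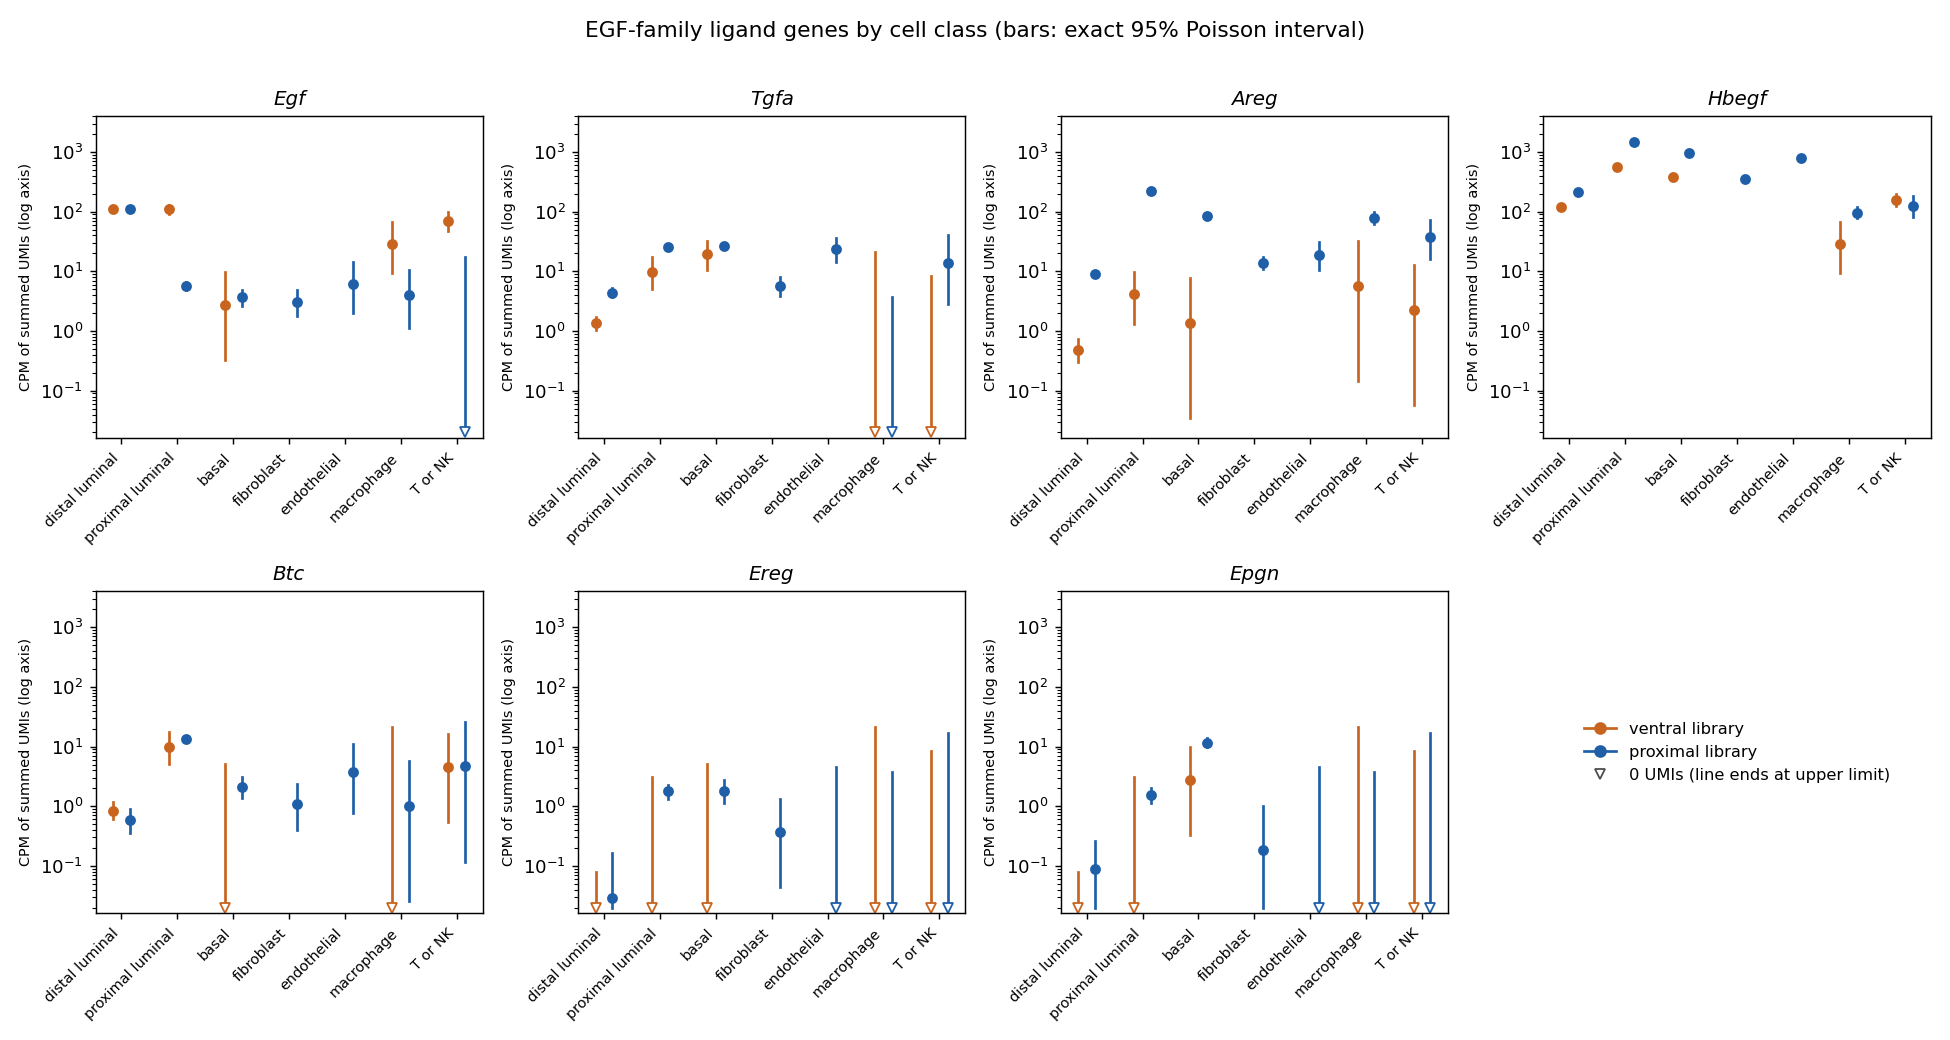
Levels of the 7 ligand genes by cell class, in CPM of summed UMIs on a log axis, with exact 95% Poisson intervals; open triangles mark classes with 0 UMIs. Egf was at 111 CPM in proximal distal luminal and 3.68 CPM in basal cells, whereas Areg was at 225 CPM in proximal luminal and 9.02 CPM in distal luminal cells of that library.

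Ratios between classes were read as called when a gene had at least 20 UMIs in the pair, differed by at least 2-fold, and had an interval that left out 1; the same rule over all genes gives the background. A level in CPM is a share of the UMIs of its class, so the large share of secretory transcripts in distal luminal cells lowers the other genes there. The median log2 ratio of all genes was 0.82 for ventral basal against distal luminal cells and 0.19 for the proximal pair, and totals without the 23 genes above 1% of a class moved these medians by -0.92 and -0.36. The other comparisons with distal luminal cells moved by -0.70 for proximal luminal cells of the ventral library and -0.38 for those of the proximal library. The shift was -0.47 for ventral macrophages, -0.11 for fibroblasts, -0.22 for ventral basal against proximal luminal cells, and -0.56 and -0.24 between the libraries in distal and proximal luminal cells; in the other 3 comparisons it was within 0.1.

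Between proximal luminal and distal luminal cells of the proximal library, 7 of 10 members were higher in proximal luminal cells and 1 was lower, against backgrounds of 25.8% and 16.0% of all genes. With totals that leave out the large genes the background became 18.7% higher and 24.5% lower. Areg was 24.9-fold (22.2 to 28.1) higher, Btc 23-fold (14.7 to 38.1), Hbegf 6.78-fold (6.62 to 6.95) and Tgfa 5.9-fold (4.95 to 7.07). With free RNA subtracted Areg was 53.9-fold and Btc 44.8-fold higher, and with the highest doublet scores removed 43-fold and 37.2-fold. Egfr was 6.81-fold (6.07 to 7.66) higher. Epgn and Ereg were called higher too, against only 3 and 1 UMIs in distal luminal cells, at ratios of 17.5 (5.61 to 87.7) and 60.3 (10.4 to 2428), and the Epgn call was lost at a clustering resolution of 0.5, at 10.1. Egf was 19.2-fold (16.5 to 22.5) lower, or 30.4-fold with free RNA subtracted and 11.6-fold with cells gated on markers. Erbb3 was at a ratio of 2.0 (1.83 to 2.17), before rounding just under the 2-fold bound, and past it in 6 kinds of other processing, at up to 4.19, and Erbb2 at 0.895 (0.758 to 1.06). Gating on markers ended the Egfr call, at 3.43, the Tgfa call, at 5.66, and the Btc call, at 0, while Ereg and Epgn gave no ratio there and were not called. The median log2 ratio of the members was 2.76 and that of all genes 0.19.

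The ventral proximal luminal cells, 85 in all, showed 7 of the 8 members tested higher than distal luminal cells and 0 lower, against backgrounds of 33.9% and 1.10%, or 12.6% higher and 4.6% lower without the large genes. Btc was 11.7-fold (5.56 to 22.7) higher, Areg 8.61-fold (2.55 to 23.3) on 5 UMIs, Tgfa 7.33-fold (3.6 to 13.7), Hbegf 4.72-fold (4.35 to 5.11) and Egfr 4.77-fold (2.79 to 7.71). Erbb3 was 3.08-fold (2.21 to 4.19) and Erbb2 2.76-fold (1.74 to 4.17) higher, and both lost the call without the large genes, at 1.89-fold and 1.69-fold. The Egfr call was lost with stricter limits on cells, at 2.3-fold. Without the 27 cells above 5% of secretory UMIs the ratios were larger: 20.2-fold for Btc, 16.3 for Areg, 11.5 for Tgfa, 7.58 for Egfr, 7.34 for Hbegf and 4.63 for Erbb3. Without the large genes they were smaller: 7.17-fold for Btc, 5.29 for Areg, 4.51 for Tgfa, 2.93 for Egfr and 2.9 for Hbegf. Egf was at a ratio of 0.991 (0.829 to 1.18), or 0.651 without the 27 secretory cells and 0.609 without the large genes. The members' median log2 ratio was 2.25 beside 0.84 for all genes.

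Basal cells of the proximal library had 7 of 10 members higher and 1 lower than distal luminal cells, against backgrounds of 28.2% and 19.7%, or 21.6% higher and 27.4% lower without the large genes. Egfr was 24.1-fold (21.5 to 27.1) higher, Areg 9.37-fold (8.24 to 10.7), Tgfa 6.08-fold (5.0 to 7.43), Hbegf 4.49-fold (4.37 to 4.63) and Btc 3.63-fold (1.95 to 6.86), the last 1.38-fold and not called at a clustering resolution of 2. The Epgn ratio was 132 (44.3 to 648) and that of Ereg 61.4 (9.93 to 2535), each on a distal luminal count of at most 3. The Ereg call was lost at a clustering resolution of 2 and without the top cell of each class. Areg stayed called but ranged from 4.32-fold at that resolution to 22.1-fold with the highest doublet scores removed. Egf was 30.3-fold (22.6 to 41.6) lower, or 74.4-fold with free RNA subtracted. Erbb2 and Erbb3 were at ratios of 0.587 (0.446 to 0.763) and 0.60 (0.51 to 0.704), which became calls, lower in basal cells, without the large genes at 0.458 and 0.468. Erbb3 was also called lower at a clustering resolution of 2, at 0.373, and with cells weighted equally, at 0.491. The median log2 ratio was 2.39 for the members and 0.19 for all genes.

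Of the 8 members tested in the ventral library, 3 were higher in basal than in distal luminal cells and 2 were lower, against backgrounds of 31.4% and 5.95%, or 12.9% higher and 17.4% lower without the large genes. Tgfa was 14.3-fold (7.41 to 25.9) and Egfr 13.9-fold (9.21 to 20.3) higher, or 7.55-fold and 7.31-fold without the large genes. Hbegf was 3.19-fold (2.82 to 3.6) higher, and 1.68-fold, no longer called, without the large genes. Egf and Erbb3, on 2 and 1 basal UMIs, were at ratios of 0.0246 (0.00298 to 0.0888) and 0.117 (0.00296 to 0.656). Without the large genes these ratios were 0.013 and 0.0618, and without the top cell of each class Egf was at 0.0124. The Erbb3 call was lost without the basal cells of more fibroblast than basal marker UMIs, at a ratio of 0.222. The members' median log2 ratio was 1.53 against 0.82 for all genes.

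Set directly against proximal luminal cells, proximal basal cells had 2 members higher and 3 lower of the 10, against backgrounds of 13.5% and 12.3%. Egfr was 3.54-fold (3.35 to 3.75) and Epgn 7.57-fold (5.39 to 10.8) higher in basal cells. Btc was 6.34-fold (4.26 to 9.82), Erbb3 3.33-fold (2.86 to 3.89) and Areg 2.66-fold (2.49 to 2.84) lower, the last at a ratio of 0.515, not called, with the highest doublet scores removed. At a clustering resolution of 2 they were 15.7-fold, 4.99-fold and 4.55-fold lower. Egf, at a ratio of 0.634 (0.446 to 0.885), was called lower with the highest doublet scores removed, at 0.391, and with free RNA subtracted, at 0.409. Tgfa was at a ratio of 1.03 (0.903 to 1.17) and Ereg at 1.02 (0.59 to 1.7). In the ventral library 1 of 6 members tested, Egfr, was higher, 2.91-fold (1.61 to 5.42), and 3 were lower, against backgrounds of 12.0% and 20.0%, or 8.81% higher and 25.6% lower without the large genes. The lower members were Egf, at a ratio of 0.0248 (0.00297 to 0.0914), Erbb3, at 0.0381 (0.000943 to 0.223), and Erbb2, 2.87-fold (1.07 to 9.62) lower. The ventral Egfr call was lost when cells above 5% of secretory UMIs were left out, at 1.76-fold, whereas the ratio was 5.82 with stricter limits on cells, and the Erbb2 call was lost in 6 kinds of other processing that changed the cells or the weighting. Hbegf became called, lower at 0.427, without those secretory cells, and Tgfa, higher at 2.37-fold, with the highest doublet scores removed. Members' median log2 ratios were -0.60 in the proximal and -1.04 in the ventral library, beside -0.01 and -0.15 for all genes.

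**Figure D3:**
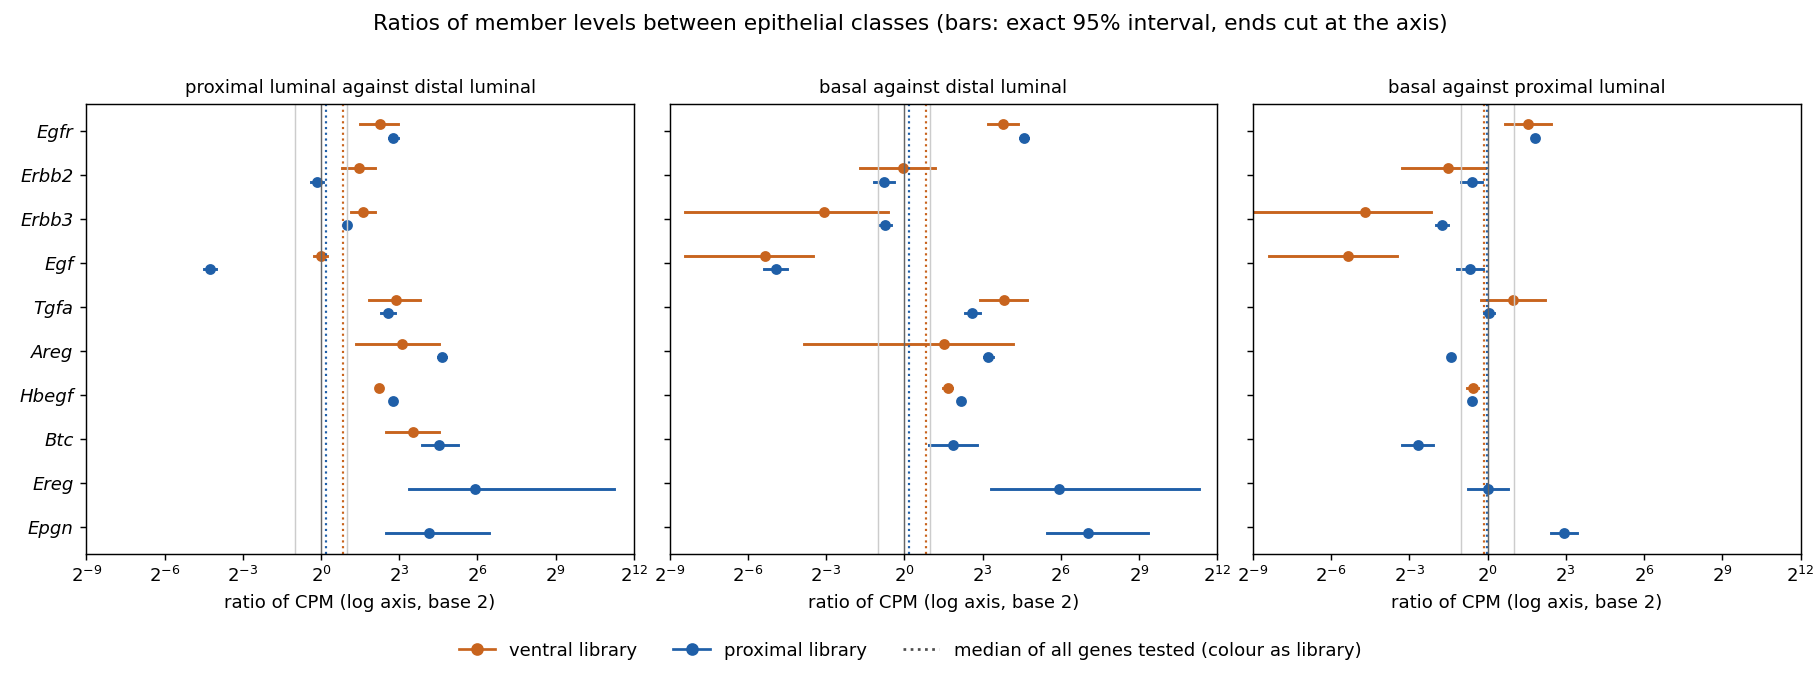
Ratios of member levels between epithelial classes on a log axis in base 2, with exact 95% intervals, for members with at least 20 UMIs in the pair and at least 1 UMI on each side; dotted lines mark the median of all genes tested, and interval ends beyond the axis are cut. In proximal against distal luminal cells Egf was 19.2-fold (16.5 to 22.5) lower in the proximal library, but at a ratio of 0.991 in the ventral library. That ventral ratio was 0.609, not drawn, with totals that leave out genes above 1% of a class.

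Fibroblasts of the proximal library, set against all its named epithelial cells, had 8 members lower and 0 higher of the 10, against backgrounds of 13.1% lower and 24.0% higher. Erbb3 was 17.2-fold (9.57 to 34.4), Egf 16.9-fold (10.5 to 29) and Areg 7.48-fold (5.97 to 9.48) lower; with free RNA subtracted Erbb3 was 90.1-fold and Egf 55.1-fold lower. Hbegf was 2.33-fold (2.23 to 2.44), Tgfa 2.92-fold (2.05 to 4.32), Btc 5.38-fold (2.45 to 14.7) and Erbb2 2.62-fold (1.65 to 4.46) lower, and Epgn was at a ratio of 0.0736 (0.00185 to 0.415) on 1 fibroblast UMI. Egfr and Ereg were not called. Egfr, the only member with a ratio above 1, was at 1.73 (1.59 to 1.87), below the 2-fold bound. Ereg was at 0.37, and was called lower with cells weighted equally, at 0.121. The median log2 ratio was -1.99 for members and 0.19 for all genes. Egfr was called higher at 1.5-fold as the bound and at a clustering resolution of 2, at a ratio of 2.13. With cells weighted equally the Egfr ratio was 0.888, below 1, and the Erbb2 call was lost, at 0.521. The Hbegf call was lost at a clustering resolution of 0.5 and with stricter limits on cells, at ratios of 0.531 and 0.501. With cells gated on markers 7 of the 8 calls were lost, with Hbegf at 1.33, Tgfa at 1.7 and Erbb2 at 0.754. Erbb3, Areg and Btc were at 0 there, and Epgn gave no ratio.

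Macrophages of the proximal library had 7 members lower and 0 higher than all named epithelial cells, against backgrounds of 19.0% and 13.2%. Egfr was 13.5-fold (5.79 to 41.7), Egf 12.8-fold (5.01 to 47.1) and Hbegf 8.56-fold (7.0 to 10.6) lower. Without the top cell they were 21.3-fold, 24.8-fold and 16.5-fold lower, and with stricter limits on cells Egfr was 61.9-fold and Hbegf 47.5-fold lower. Tgfa, with 0 macrophage UMIs against 1273, was at least 5.4-fold lower with 3 counts as the floor of the class. Erbb2, Erbb3 and Btc had 1 macrophage UMI each, at ratios of 0.118 (0.00299 to 0.661), 0.0296 (0.00075 to 0.165) and 0.173 (0.00437 to 0.969), and the Btc call was lost in 8 kinds of other processing. Areg was at a ratio of 0.748 (0.589 to 0.935), and at 0.389, called lower, without its top cell. In the ventral library 2 of 8 members tested, Egf and Hbegf, were lower and 0 higher, against backgrounds of 2.96% and 11.5%, or 8.45% higher and 6.99% lower without the large genes. Each had 5 macrophage UMIs, with Egf 3.83-fold (1.64 to 11.8) and Hbegf 4.69-fold (2.01 to 14.4) lower. Without the 2 macrophages above 5% of secretory UMIs, 0 Egf UMIs and 1 Hbegf UMI were left. With cells weighted equally Egf and Hbegf were 24.3-fold and 16.3-fold lower. That weighting also turned Erbb2, at a ratio of 1.54 (0.186 to 5.62), into a call, lower at 0.242. Median log2 ratios of the members were -3.10 and -0.08, beside -0.11 and 0.45 for all genes.

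Between the libraries, the same class could be compared for the 3 main epithelial classes, with region and kit not to be told apart and different clusters in each library. Of 8 members tested in distal luminal cells, 4 were higher in the proximal library and 0 lower, against backgrounds of 44.5% and 2.51%, or 24.8% higher and 6.24% lower without the large genes. Areg was 18.9-fold (12.2 to 30.6), Tgfa 3.28-fold (2.43 to 4.49), Egfr 3.04-fold (2.5 to 3.7) and Erbb3 2.17-fold (1.95 to 2.42) higher. The Erbb3 call was lost without the large genes, at 1.47-fold, with stricter limits on cells, at 1.92-fold, and with gating on markers, at 1.96-fold. Areg stayed called at 8.92-fold with free RNA subtracted. Btc was at a ratio of 0.691 (0.382 to 1.21), not called, but was called lower in 4 kinds of other processing, at 0.374 to 0.479. Egf was at a ratio of 0.993 (0.952 to 1.04), Hbegf at 1.81 (1.75 to 1.88), called with looser limits on cells at 2.0, and Erbb2 at 1.34 (1.15 to 1.57). Leaving out the large genes moved the median log2 ratio by -0.56, so the Egf and Erbb2 ratios depend on the totals used. Sbp and Spink1 took 45.8% of the ventral and 16.2% of the proximal UMIs of this class, and the stress list was at 4454 and 13748 CPM; their part in these differences was not tested. The members' median log2 ratio, 0.99, was close to that of all genes, 0.88.

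Proximal luminal cells had 4 of 10 members higher and 2 lower in the proximal library, against backgrounds of 17.4% and 13.3%, or 13.3% higher and 17.9% lower without the large genes. Areg was 54.7-fold (23.4 to 168) higher on 5 ventral UMIs, Egfr 4.33-fold (2.77 to 7.21), Tgfa 2.64-fold (1.5 to 5.14) and Hbegf 2.61-fold (2.42 to 2.82). Egf was 19.2-fold (15.2 to 24.1) and Erbb2 2.3-fold (1.44 to 3.49) lower. Leaving out cells above 5% of secretory UMIs ended the Tgfa and Hbegf calls, both at 1.68-fold. It left Areg 28.9-fold and Egfr 2.73-fold higher and Egf 12.6-fold lower. With stricter limits on cells Egfr was 10.6-fold higher and Egf 31.6-fold lower. Btc, at a ratio of 1.36 and not called, was called higher under those limits, at 2.23, and was at 0.788 without the secretory cells. The Erbb2 call was lost with another random seed, at a ratio of 0.513, and with the highest doublet scores removed, at 0.54. In basal cells 5 of 10 were higher and 0 lower, against 21.9% and 15.1%. They were Egfr, 5.28-fold (3.75 to 7.68), Hbegf, 2.55-fold (2.27 to 2.89), and, on 1 or 2 ventral UMIs, Areg, Erbb3 and Epgn, at ratios of 61.3 (11 to 2425), 11.1 (1.97 to 440.4) and 4.21 (1.14 to 35.1). At a clustering resolution of 2 the Areg ratio was 28.2 and that of Erbb3 6.89. The Epgn call was lost without the fibroblast-marked basal cells, at 4.47, and with cells weighted equally, at 3.53. Median log2 ratios of members and of all genes were 0.94 and 0.01 in proximal luminal and 1.71 and 0.12 in basal cells.

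Within classes the members differed between clusters. The proximal luminal cluster led by Clca1, Krt4 and Upk1a had 455 CPM (436 to 474) of Areg, which itself was among its 10 leading genes although it did not enter the clustering. Among the other proximal luminal clusters of over 50 cells, that led by Tff3 and Sbsn had 278 CPM, the cluster led by Arl14 and Krt23 111 CPM and the cluster led by Prol1 and Pip 79.6 CPM. Hbegf in these 4 clusters ran from 1465 to 1535 CPM, and Btc from 9.76 to 17 CPM. Areg thus spread more widely over these clusters than Hbegf or Btc. A cluster of 47 cells in the same class had 156 CPM of Areg and 643 CPM of Hbegf.

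Basal cells of the proximal library formed 3 clusters with unlike members. The cluster led by Ivl, Grp and Sfn had 169 CPM (157 to 181) of Areg, against 40.1 CPM in the cluster led by Krt14 and Krt17 and 31.6 CPM in the cluster led by Trp63. Its Egfr was also highest, at 307 CPM against 218 and 127 CPM. Hbegf was lowest there, with 528 CPM against 1245 and 1107 CPM. The stress list was also lowest in that cluster, at 7874 CPM against 14266 and 20724 CPM, and its part in the Hbegf difference was not tested. Epgn was at 9.75 CPM there, 14.3 CPM in the Krt14 cluster and 3.24 CPM in the Trp63 cluster.

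Among distal luminal clusters Egf ranged widely. The proximal library had 214 CPM (204 to 223) in the cluster led by Ren1 and Tgm4, 127 CPM in the cluster led by Prr9 and Pate14, 93.4 CPM in the cluster led by Sbp and Spink1 and 34.4 CPM in the cluster led by Msmb and Defb50. A cluster of 55 cells and low depth had 141 CPM. The ventral cluster led by Msmb and Pbsn was at 62.4 CPM, the lowest of the ventral distal luminal clusters but for a 67-cell cluster of low depth at 34.3 CPM, and the highest was at 149 CPM. Msmb-led clusters were thus at the low end of Egf in both libraries. The 3 fibroblast clusters held Egfr at 167 CPM where Sult1e1 and C3 led, 151 CPM where Tmem100 and Lgr5 led and 65.5 CPM where Cxcl14 and Rorb led. Over the 14 ventral clusters Hbegf and the stress list went together (r = 0.77 and rho = 0.65), and over the 21 proximal clusters less closely (r = 0.52 and rho = 0.46); for Areg the values were r = 0.54 and rho = 0.60 over the ventral and r = 0.09 and rho = 0.10 over the proximal clusters. The ventral values were r = 0.64 and rho = 0.59 for Egfr and r = 0.66 and rho = 0.62 for Tgfa, and the proximal ones r = 0.28 and rho = 0.25 and r = 0.23 and rho = 0.17. These are descriptions over clusters that share a library, a depth and a set of cells.

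**Figure D4:**
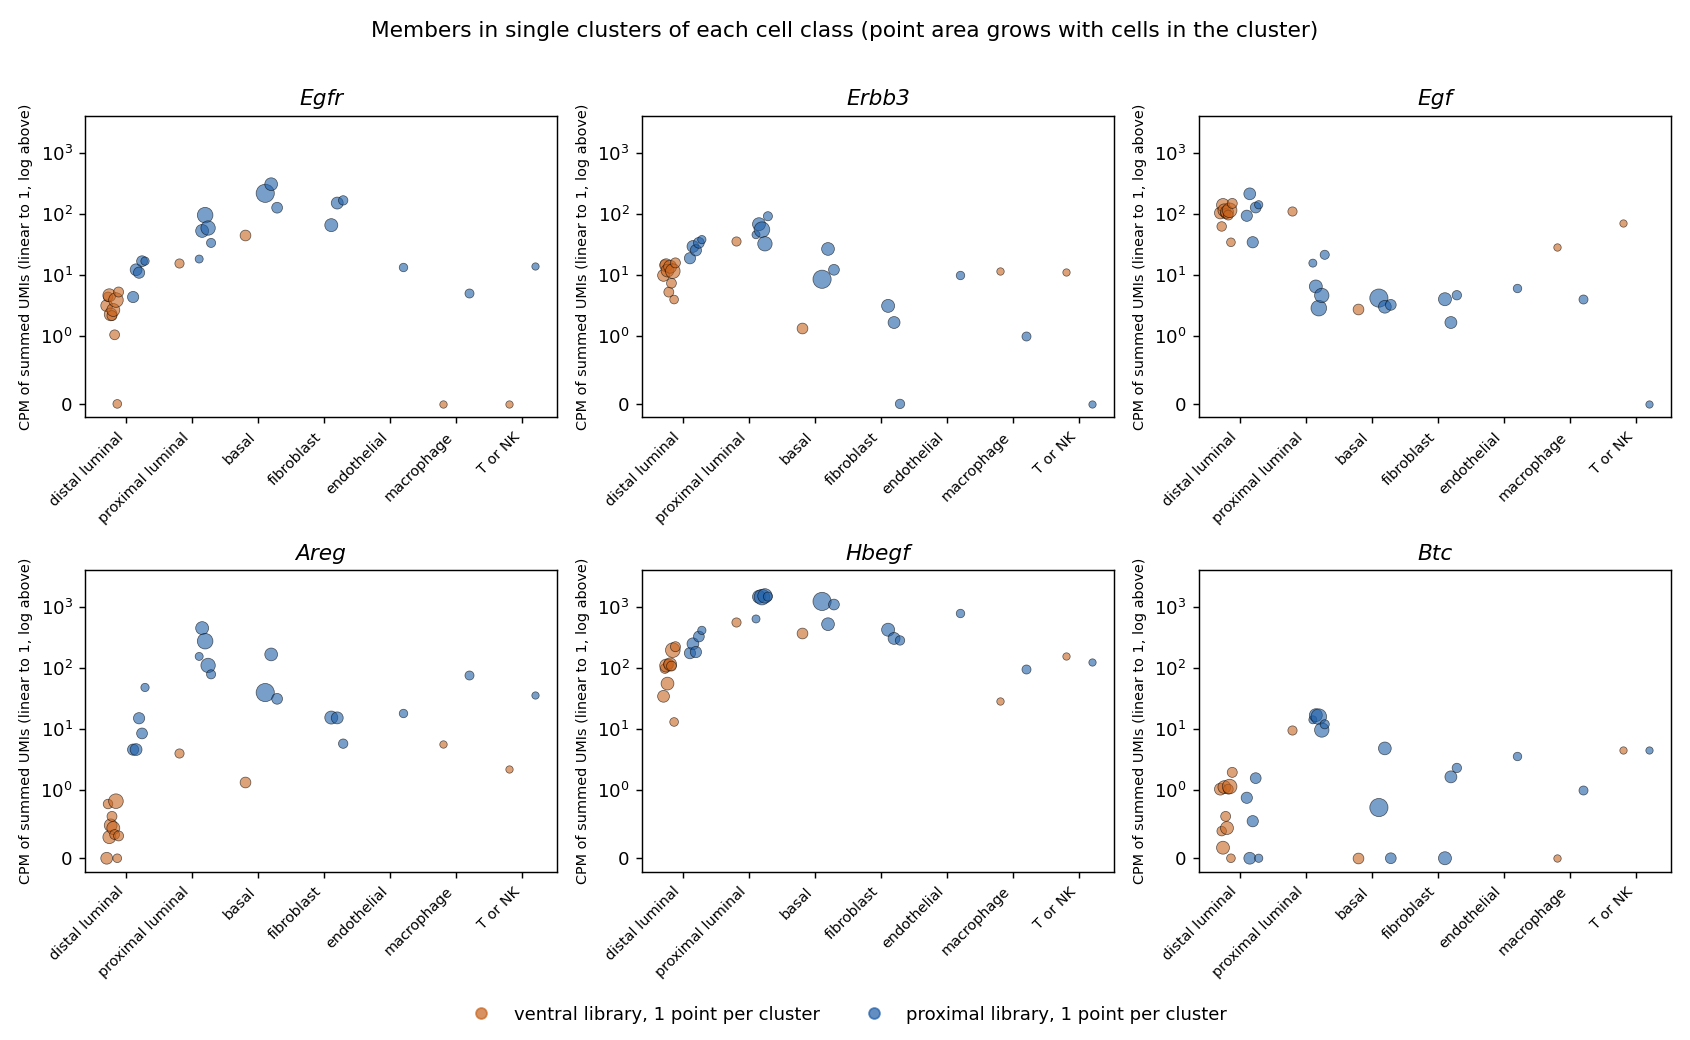
Levels of 6 members in each cluster, grouped by class, in CPM of summed UMIs on an axis that is linear up to 1 and log above it; point area grows with the number of cells. Proximal luminal clusters of the proximal library spread from 79.6 to 455 CPM of Areg, and its distal luminal clusters from 34.4 to 214 CPM of Egf.

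Ligand and receptor transcripts were also counted in the same cells, after thinning to 2000 UMIs. Among proximal basal cells, Egfr was found in 34.9% (23.3% to 48%) of the 63 cells with and 30.8% (27.6% to 34%) of the 839 cells without an Areg UMI. For Hbegf in the same class it was found in 29.8% (26.2% to 33.6%) of the 624 cells with and 33.8% (28.3% to 39.7%) of the 278 cells without the ligand. Egfr was therefore about as frequent with as without either ligand, and these intervals overlapped. In proximal luminal cells of the proximal library, Erbb3 was found in 9.18% (7.36% to 11.3%) of the 882 cells with and 16.9% (11.4% to 23.6%) of the 160 cells without an Hbegf UMI. These intervals did not overlap, and the lower share was that of the cells with Hbegf; 36 combinations of ligand, receptor and class were looked at in this way. Among fibroblasts, Egfr was found in 9.14% (5.41% to 14.2%) of the 186 cells with and 16.3% (12.3% to 21.1%) of the 294 cells without an Hbegf UMI, with overlapping intervals.

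Over the 35 clusters, 7 members reached 20 CPM with 20 UMIs in 1 cluster, and the genes with the most similar pattern were found among 10665 genes by Pearson's r of log2(CPM + 10), centred within each library. Egfr ran closest to Igsf3 (r = 0.93), Eda (r = 0.92) and Ctps (r = 0.92). Erbb3 ran closest to Cldn7 (r = 0.90), Crb3 (r = 0.89) and Cgn (r = 0.88), and Erbb2 with Cep85 (r = 0.84), Kyat1 (r = 0.82) and Zfp395 (r = 0.82). The genes closest to Egf were Bhlha15 (r = 0.91), which encodes the transcription factor MIST1 of secretory cells, Slc9a2 (r = 0.90), and Spdef (r = 0.90), a transcription factor of luminal epithelium. For Tgfa they were Slco2a1 (r = 0.92), Notch1 (r = 0.88) and Mecom (r = 0.87), for Areg S100a14 (r = 0.88), Pstpip2 (r = 0.88) and Cers3 (r = 0.87), and for Hbegf Magi3 (r = 0.91), Actn1 (r = 0.90) and Amotl2 (r = 0.90). Between members, Egfr against Egf gave r = -0.50 and Egfr against Tgfa r = 0.54. No p-value was attached, since clusters of a library are not independent.

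The rest of the ErbB family, 5 genes, showed separate patterns. Erbb4, which encodes a neuregulin receptor, was at 114 CPM (109.8 to 118) in proximal luminal, 71.4 CPM (68.6 to 74.3) in distal luminal and 52.7 CPM (48.7 to 57) in basal cells of the proximal library, and in the ventral library at 138, 86.3 and 11 CPM. It was 7.82-fold (3.97 to 18.1) lower in basal than in distal luminal cells of the ventral library, where Nrg2 was the other of the 5 genes called. Without the fibroblast-marked basal cells ventral basal Erbb4 was at 2.61 CPM (0.066 to 14.5) from 1 UMI. Nrg1, a ligand of Erbb3 and Erbb4, was at 589 CPM (576 to 603) in basal, 329 CPM (323 to 335) in distal luminal and 28.1 CPM (26.3 to 30.1) in proximal luminal cells of the proximal library. Proximal luminal cells thus had 11.7-fold (10.9 to 12.6) less Nrg1 than distal luminal cells, opposite to their excess of Areg and Btc. Over clusters Nrg1 ranged from 11.7 to 38 CPM in these proximal luminal cells and from 118 to 1086 CPM in the distal luminal cells. In the ventral library Nrg1 was at 89.6, 100.2 and 72.4 CPM in the same order, and no pair was called. Nrg2 was at 63 CPM (58.6 to 67.6) in basal cells and 52.9 CPM (47 to 59.3) in fibroblasts of the proximal library and at 75.8 CPM (57.1 to 98.7) in ventral basal cells, against 0.82 and 0.391 CPM in distal luminal cells. Nrg3 and Nrg4 stayed at or below 5.65 CPM in every class.

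Feedback inhibitors and other brakes on the receptors, 14 genes, include phosphatases, Sprouty proteins and direct inhibitors. In proximal basal against distal luminal cells 9 of 14 were higher and 0 lower, beside 28.2% and 19.7% of all genes, with a median log2 ratio of 1.85 against 0.19 for all genes. Dusp6, a phosphatase of ERK, was 36.7-fold (30.3 to 44.7), Spry4 26.8-fold (15.7 to 49.1) and Lrig1, which lowers ErbB receptor levels, 22.6-fold (15.7 to 33.5) higher. Proximal against distal luminal cells gave 8 of 14 higher and 0 lower, beside 25.8% and 16.0% of all genes, led by Spry2, 8.9-fold (7.73 to 10.3), Dusp6, 7.57-fold (6.22 to 9.28), and Errfi1, an inhibitor of the EGF receptor kinase, 6.82-fold (6.61 to 7.04). Basal against proximal luminal cells gave 6 of 14 higher and 2 lower, beside 13.5% and 12.3%: Lrig1 was 10.7-fold (8.1 to 14.4) higher and Errfi1 2.15-fold (2.09 to 2.22) lower. In the ventral library 7 of 13 tested were higher in basal and 10 of 13 in proximal luminal than in distal luminal cells, and 0 lower in either, beside 31.4% and 33.9% of all genes higher, or 12.9% and 12.6% without the large genes. Between ventral basal and proximal luminal cells 3 of 11 were higher and 1 lower, beside 12.0% and 20.0% of all genes, or 8.81% higher and 25.6% lower without the large genes.

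Response genes of the pathway, 13 in all, of which Spry2, Spry4 and Dusp6 are also among the brakes and Fos and Egr1 in the stress list, were also counted. In the proximal library 10 of 13 were higher in basal and 11 in proximal luminal than in distal luminal cells, 0 lower, beside 28.2% and 25.8% of all genes, at median log2 ratios of 3.27 and 2.47. The ETS factor Etv4 was 30.1-fold (17 to 57.9) higher in basal cells, and Fosl1, an AP-1 subunit, 12.6-fold (11.6 to 13.7) and Dusp4 28.5-fold (16.5 to 54.2) higher in proximal luminal cells. Between these 2 classes Etv4, 10.4-fold (7.08 to 15.7) higher in basal cells, and Fosl1, at a ratio of 1.03 (0.982 to 1.07), differed in pattern. Of the ventral response genes tested, 10 of 10 were higher in basal and 8 of 9 in proximal luminal than in distal luminal cells, beside 31.4% and 33.9% of all genes. In the same ventral comparisons 12 and 11 of the 14 stress genes were higher, and in the proximal ones 1 each; their part in the ventral counts was not tested.

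The 4 surface partners, Cd9, Cd44, Sdc1 and Sdc4, which bind heparin-binding EGF or its precursor or carry heparan sulphate, were all higher in proximal luminal and in basal than in distal luminal cells of the proximal library, beside 25.8% and 28.2% of all genes. Cd44 was 11.8-fold (10.8 to 12.9) higher in proximal luminal cells, and Sdc1 was 27.6-fold (24.2 to 31.5) and Cd9 8.59-fold (8.34 to 8.86) higher in basal cells. Between basal and proximal luminal cells Sdc1 was 3.82-fold (3.58 to 4.07) higher and Cd44 2.0-fold (1.88 to 2.13) lower in basal cells, beside 13.5% of all genes higher and 12.3% lower. Of 8 genes for ligand shedding, 7 were tested between basal and distal luminal cells, of which 4 were higher and 1 lower in basal cells, beside 28.2% and 19.7% of all genes; Adam17, the main sheddase of these ligands, was 2.76-fold (2.48 to 3.07) higher. In proximal luminal against distal luminal cells 2 of the 7 were higher and 0 lower, about the 25.8% of all genes higher, namely Rhbdf1, a partner of Adam17, at 3.42-fold (2.88 to 4.09), and Rhbdf2. The same comparison in the ventral library had 6 of 7 higher and 0 lower, beside 33.9% of all genes higher, or 12.6% without the large genes, and ventral basal against distal luminal cells 2 of 7 higher and 0 lower, beside 31.4%, or 12.9%. Of 16 genes for signalling below the receptors, 6 were higher and 1 lower in basal cells and 7 higher and 0 lower in proximal luminal cells, beside 28.2% and 25.8% of all genes higher, such as the adaptor Grb2, 2.84-fold (2.68 to 3.02) higher in proximal luminal cells.

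In fibroblasts 5 of the 14 brakes were higher and 1 lower than in the epithelium, near the 24.0% and 13.1% of all genes; the largest ratios were those of Lrig1, 9.42-fold (7.97 to 11.1), and Spry4, 8.16-fold (6.4 to 10.3), both higher. Of the 8 shedding genes 3 were higher, Adam12, 59-fold (21.7 to 200.4), Rhbdf1, 2.2-fold (1.82 to 2.64), and Adam17, 2.12-fold (1.9 to 2.37), 1 was lower, Rhbdl2, and 4 were not called, beside the same shares of all genes. Proximal macrophages had 1 brake higher and 6 lower and 8 of 13 response genes lower, beside 19.0% of all genes lower and 13.2% higher. Spry2 was among them, 17-fold (4.7 to 140.3) lower on 2 macrophage UMIs. Of the stress genes 11 of 14 were lower in the same comparison, and their part was not tested. Of 7 shedding genes tested 2 were higher, Adam17, 3.1-fold (2.5 to 3.8), and Rhbdf2, 3.99-fold (2.77 to 5.58), and 1 lower, Rhbdl2, and of the 4 surface partners Cd44 was 5.4-fold (4.94 to 5.9) higher and Sdc1 13.9-fold (5.42 to 50.9) lower, beside the same shares of all genes. The 3 receptor genes were lower in proximal macrophages, Erbb2 and Erbb3 on 1 UMI each; in ventral macrophages no receptor gene was called, although Erbb2 became called lower with cells weighted equally.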

How the data were processed

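Single-cell RNA-seq (10x Chromium 3') gave 1 library per region, and groups follow the labels. The deposited matrices hold raw counts of UMIs per gene and cell, made by the authors with Cell Ranger 7.0.0 per the file headers and with build mm10 per the submitters' processing notes; the annotation release was not given in the sources used here, and whether counting used intron reads is not stated. Cells with at least 500 genes and at most 10% mitochondrial UMIs were kept and Scrublet's doublets removed. Counts were scaled to 10000 per cell and log-transformed, and 2000 variable genes without the members and pathway lists, 30 components and 15 neighbours gave Leiden clusters (scanpy 1.11.5, resolution 1), which were named from marker lists. Clusters of under 3 detected markers, or led by another class's genes, stayed unnamed.

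UMIs were summed per class (CPM with exact Poisson intervals), shares have exact Clopper-Pearson intervals, and ratios have exact intervals conditional on the total (scipy 1.17.1). All cover counting error only, so no test across animals was possible. A ratio was called at 2-fold with an interval leaving out 1 and at least 20 UMIs, and this was tested on simulated counts. The simulated counts were independent Poisson draws, so they cannot show how the rule fares where UMIs are clumped in single cells. The members and lists were chosen with earlier results of these data known. The text names all members, up to 3 genes of a pathway list per comparison by size of the ratio among those called, and the 3 genes most like each member; further genes named for contrast were chosen after their values were seen. Gene positions are from GENCODE M21 and promoter windows from RefSeq GRCm38.p6. Alternatives changed clustering, cell limits, doublets, free RNA, totals, weighting and bounds; 2 were added after seeing the data.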

Additional observations from a re-analysis of the deposited data

How the results depend on the processing

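No paired analysis was possible because each region has 1 library, and none could be left out. Across 15 kinds of other processing, member ratios moved beyond their interval in the largest share with cells gated on markers (11 moved, 2 reversed and 6 the same). Next came totals that leave out the large genes (27 moved, 70 did not), stricter limits on cells (24 and 71) and cells weighted equally (23 and 74). Another random seed moved 5 of 97. No called ratio changed sign except under that gating, which gave no value for 9 of the 12 comparisons because a class held under 20 cells. Under that gating fibroblasts against the epithelium had 1 member called in place of 8, with log2 ratios of 0.76 for Tgfa and 0.41 for Hbegf, the reverse of the main values, and proximal against distal luminal cells of the proximal library had 4 in place of 8; few cells pass the gates. With 3-fold as the bound, members called fell from 4 to 2 for ventral basal against proximal luminal cells, from 8 to 5 for fibroblasts and from 6 to 3 for proximal luminal cells between libraries. At least 50 UMIs also left 2 in the ventral pair, and 1.5-fold gave 8 in place of 5 for proximal basal against proximal luminal cells. Counting the unnamed cluster as proximal luminal moved 7 of 97. Depth limits the scarce ligands: Ereg, Epgn, Btc and ventral Areg rest on few UMIs in most classes.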

Other observations

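The 318 proximal cells that stayed unnamed were led by the haemoglobin genes Hbb-bs and Hba-a1 together with Aqp5 and Clu, and their best marker score was that of proximal luminal cells. They had the highest Hbegf level of any class, 1702 CPM (1675 to 1729), against 1477 CPM in named proximal luminal cells of the same library. Erbb3, at 42.5 CPM (38.3 to 46.9), Btc, at 8.2 CPM (6.44 to 10.3), and Areg, at 112 CPM (105 to 119), were lower than in the named proximal luminal cells. Egfr was at 35.8 CPM (32 to 39.9) and Egf at 7.1 CPM (5.46 to 9.06). The stress list summed to 19312 CPM in these cells, the highest of any class, and its part in the Hbegf level was not tested.

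The 26 seminal vesicle cells, led by Svs genes, had 174 CPM (148 to 202) of Hbegf and 10.5 CPM (5.04 to 19.3) of Tgfa. Areg was at 1 UMI there, 1.05 CPM (0.0266 to 5.86), and Ereg and Epgn at 0, while Erbb2 was at 9.46 CPM (4.33 to 18). Of the ligands measured in these cells, Egf was at 8.41 CPM (3.63 to 16.6) and Btc at 4.21 CPM (1.15 to 10.8). Endothelial cells, 61 in number, had 18.6 CPM (10.4 to 30.6) of Areg and 9.9 CPM (4.27 to 19.5) of Erbb3.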
